A study of Mus musculus with 2 samples.

Results

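The 10 genes described here encode enzymes of eicosanoid synthesis. They were taken from the feature tables by symbol: Ptgs1, Ptgs2, Ptges, Tbxas1, Hpgds, Alox5, Alox5ap, Alox15, Lta4h and Ltc4s, of 31053 genes in all. Each symbol had 1 row in both tables. The rule uses no measured value, although the list was chosen with earlier results of these data known.

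Eicosanoids are lipid mediators made from arachidonic acid. The cyclooxygenases, encoded by Ptgs1 and Ptgs2, convert it to an unstable endoperoxide, from which terminal synthases make prostaglandin E2 (Ptges), thromboxane A2 (Tbxas1) or prostaglandin D2 (Hpgds). Along the other branch 5-lipoxygenase (Alox5), helped by its activating protein (Alox5ap), makes leukotriene A4, which Lta4h turns into leukotriene B4, a neutrophil attractant, and Ltc4s into the cysteinyl leukotrienes. Ptgs1 is generally regarded as the constitutive cyclooxygenase and Ptgs2 as the one induced in inflammation, and zymosan is a classical trigger of both branches in phagocytes.

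Cells came from the vitreous of C57BL/6 mice whose eyes had been injected with zymosan, a yeast cell wall preparation that both groups received. The groups differed in the antiserum given, labelled NRS in one and aCXCR2 in the other. CXCR2 is a chemokine receptor of neutrophils, and the labels do not spell out NRS. Vitreous fluid was pooled with a rinse of the retina, Ly6G-positive cells were enriched on magnetic beads, and 1 droplet library was made per group with the 10x 3′ kit. The labels give neither the animals' age and number nor the time of collection. With 1 library a group, no difference below has a replicate check, no test was made, and intervals are 95% intervals for counting error only.

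Cells were barcodes with at least 500 UMIs (captured molecules, each counted once), 200 genes and at most 10% mitochondrial UMIs. Of 7314 barcodes in NRS 5655 passed, and of 5551 in aCXCR2 4826, with median depths of 4759 and 10383.5 UMIs. The libraries shared 53 barcodes, and no value in either class changed beyond its counting interval without them. Clusters were built without the 10 genes and without the pathway list given further on, so that these genes did not define them. Neutrophil-like clusters 0, 3, 4, 5, 8, 11 and 13 held 2798 NRS and 2599 aCXCR2 cells. Although both samples are labelled as Ly6G+ cells, macrophage-like clusters 2, 9, 10 and 12 held 607 and 1768 cells, and photoreceptor-like clusters held 658 and 215. Different clusters held most of each class in the 2 libraries: of the neutrophil-like class 0, 4, 11 and 3 in NRS and 5, 3, 8 and 13 in aCXCR2, of the macrophage-like class 12, 10 and 2 in NRS and 2, 9 and 10 in aCXCR2. In a ratio over a whole class, a difference inside the cells and a different mix of clusters cannot be told apart. The 12 neutrophil markers summed to 46689 counts per 1000000 UMIs (CPM) in NRS neutrophil-like cells but to 167404 CPM in those of aCXCR2, and the 10 photoreceptor markers to 1056 and 108 CPM. The bead enrichment can set the size of each class.

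Photoreceptor-like cells, which are not leukocytes, serve as a reference for UMIs from free RNA, although expression of their own and doublets were not separated from it. Levels are CPM over the summed cells of a class or cluster. In these retinal cells the NRS and aCXCR2 libraries stood at 1.76 and 2.85 CPM for Ptgs1, 18.0 and 7.40 CPM for Ptgs2, 2.31 and 5.13 CPM for Ptges and 40.0 and 52.4 CPM for Alox5ap. Ptgs2 was uneven among them in NRS, at 11.96 CPM in cluster 6 and 54.9 CPM in cluster 14, with 42 of its 163 UMIs in the 26 cells of cluster 18 and up to 21 in 1 cell. Of the Ptgs1 and Ptgs2 UMIs in these cells 91.1% were Ptgs2 in NRS and 72.2% (13 of 18) in aCXCR2. Lta4h stood at 24.4 and 30.8 CPM there, in the range of the leukocyte clusters. The remaining 5 genes lay between 0 and 5.62 CPM.

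Ptgs1 (ENSMUSG00000047250) lies on mouse chromosome 2 at 36230426 to 36252272 and Ptgs2 (ENSMUSG00000032487) on chromosome 1 at 150100031 to 150108227, both on the plus strand of GRCm38. The 250 bases before their RefSeq starts are shown because the results turn on how differently these 2 genes were distributed. The windows are chr2:36230176-36230425 and chr1:150099781-150100030 of RefSeq GRCm38.p6, plus strand, 5′ to 3′, with motif matches in capitals.
Ptgs1: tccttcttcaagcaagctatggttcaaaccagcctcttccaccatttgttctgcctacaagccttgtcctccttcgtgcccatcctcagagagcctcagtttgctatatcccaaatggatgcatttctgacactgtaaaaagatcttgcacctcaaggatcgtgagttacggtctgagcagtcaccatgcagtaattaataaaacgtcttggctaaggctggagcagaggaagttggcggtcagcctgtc
Ptgs2: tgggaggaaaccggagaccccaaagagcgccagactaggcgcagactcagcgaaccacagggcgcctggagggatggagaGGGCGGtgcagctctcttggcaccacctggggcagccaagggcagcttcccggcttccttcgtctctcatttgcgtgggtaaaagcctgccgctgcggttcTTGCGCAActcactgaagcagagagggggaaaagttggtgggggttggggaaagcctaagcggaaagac
The capitals in the Ptgs2 window mark a GC box (GGGCGG, at -170 to -165 from the start) and the palindrome TTGCGCAA of C/EBP factors (at -69 to -62). Also searched, on both strands, were a TATA box (TATAAA), an E-box (CACGTG), the core of a cAMP response element (TGACG), an AP-1 site (TGACTCA) and a CCAAT box (CCAAT). None of the 7 letter patterns was found in the Ptgs1 window, and none of these 5 in the Ptgs2 window. Bases past the RefSeq start or further upstream were not searched, so an absence holds for these windows only. Over 32851 mouse promoter windows of that length, 32.7% held the GC box and 0.164% the C/EBP palindrome, a motif chosen with the Ptgs2 sequence in view. The TATA box was in 12.4%, the E-box in 6.02%, TGACG in 17.8%, the AP-1 site in 4.46% and the CCAAT box in 33.8%. The Ptgs2 window had 13 CpG dinucleotides and 61.6% G and C, and the Ptgs1 window 5 and 48.0%. A match describes the sequence and says nothing of whether a factor binds there.

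Over whole classes, Ptgs2 was higher in neutrophil-like than in macrophage-like cells of both libraries, while Ptgs1 stood at the same level in both classes in NRS. Neutrophil-like cells of NRS held 58.2 CPM of Ptgs1 (54.2 to 62.5) and those of aCXCR2 39.1 CPM (36.6 to 41.8). Ptgs2 stood in the same cells at 175 CPM (168 to 182) and 116 CPM (111 to 120). Both levels exceeded those of photoreceptor-like cells, whose intervals did not reach them. In macrophage-like cells Ptgs1 stood at 57.3 CPM (53.7 to 61.2) and 27.8 CPM (26.4 to 29.2), and Ptgs2 at 21.7 CPM (19.4 to 24.1) and 26.1 CPM (24.8 to 27.5). The NRS level of Ptgs2 in macrophage-like cells is close to the 18.0 CPM (15.3 to 20.9) of NRS photoreceptor-like cells, and the intervals overlap, although its cluster 10 stood at 81.1 CPM.

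Every UMI marks 1 captured 3′ end whatever the transcript's length, but capture can differ between genes. The Ptgs2 share of the summed Ptgs1 and Ptgs2 UMIs is therefore compared across cells and not read as a ratio of transcripts. Over neutrophil-like cells it was 75.0% in NRS (73.5 to 76.6%) and 74.7% in aCXCR2 (73.3 to 76.2%). That near-equality rested on cluster 0, which had the lowest neutrophil score and held 1315 of the NRS cells but 139 of the aCXCR2 cells. Without cluster 0 the shares were 90.8% and 76.6%. Over macrophage-like cells the share was 27.4% in NRS and 48.4% in aCXCR2, and without cluster 10, which had the lowest macrophage score, 5.26% and 22.0%.

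The balance of the 2 cyclooxygenase genes differed more between clusters than between libraries. Ptgs2 was highest in cluster 11, led by the histamine-forming enzyme gene Hdc, Cxcr2 and the decoy receptor gene Il1r2, at 503 CPM in NRS (467 to 542) and 464 CPM in aCXCR2 (396 to 540). Cluster 3, led by the chemokine genes Ccl4 and Cxcl2, followed at 372 CPM (343 to 402) and 322 CPM (308 to 337). Next was cluster 4, led by the heat shock genes Hspa1a and Hspa1b, at 215 CPM (198 to 234) and 121 CPM (106 to 138). In NRS these 3 intervals did not overlap. In aCXCR2 cluster 4 was level with macrophage-like cluster 10, at 118 CPM (111 to 125). Unnamed cluster 7, which carried rod and neutrophil markers together, stood at 144 CPM (132 to 157) and 109 CPM (91.9 to 129). In these 3 neutrophil-like clusters Ptgs2 made up 92.7 to 94.6% of the 2 genes' UMIs in NRS and 79.7 to 96.5% in aCXCR2.

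Ptgs1 was highest elsewhere. Neutrophil-like cluster 5, led by the granule genes Pglyrp1, Lcn2 and Mmp8, held 101 CPM of Ptgs1 in NRS (72.6 to 136) and 83.1 CPM in aCXCR2 (76.2 to 90.5). Cluster 0, led by Wfdc21 and Lst1 and also by Ltf, the lactoferrin gene, held 89.8 CPM (82.5 to 97.6) and 132 CPM (106 to 163). Macrophage-like cluster 12, led by Spp1, Gpnmb and Trem2, genes of lipid-handling macrophages, held 96.4 CPM (89.5 to 104) and 120 CPM (110 to 130). Unnamed cluster 1 held 40.3 CPM (34.8 to 46.4) and 83.4 CPM (61.0 to 111), the latter level with cluster 5. The order of clusters 0, 5 and 12 is not resolved in NRS, where their intervals overlap. Ptgs2 made up 20.8% and 14.7% of the 2 genes' UMIs in cluster 5, 33.8% and 15.1% in cluster 0, and 2.45% and 1.68% in cluster 12. In cluster 5 the level of Ptgs2, 26.4 CPM (13.2 to 47.2) and 14.3 CPM (11.5 to 17.5), had intervals that overlap those of photoreceptor-like cells (15.3 to 20.9 and 3.94 to 12.7 CPM).

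**Figure D1:**
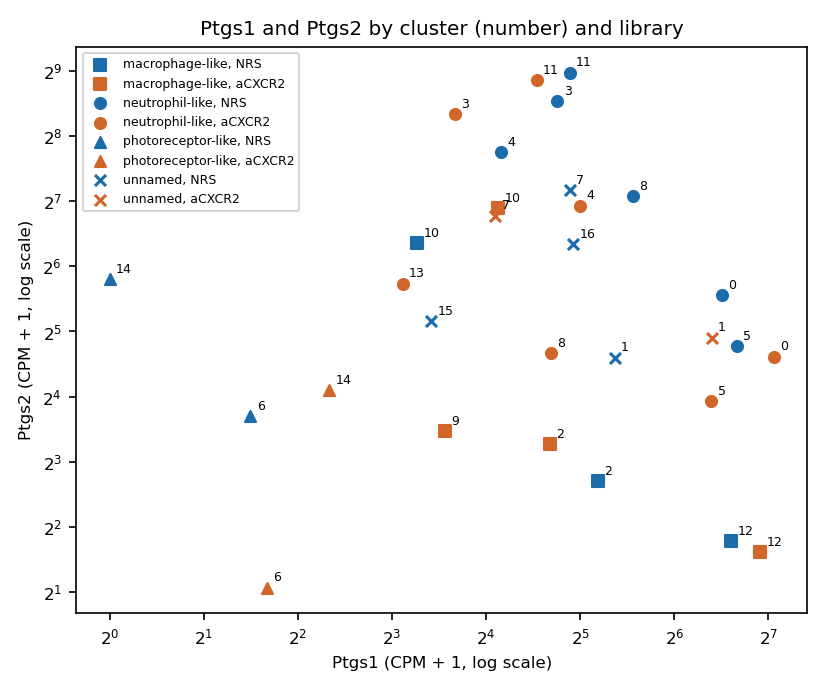
Ptgs1 against Ptgs2 level (CPM + 1, log axes) in each cluster and library with at least 50 cells, where each point is 1 cluster (number) of 1 library (colour) and its shape gives the class. Clusters 11 and 3 lie highest, with Ptgs2 at 322 to 503 CPM, and clusters 0, 5 and 12 and aCXCR2 cluster 1 lie at the right, with Ptgs1 at 83.1 to 132 CPM and Ptgs2 at 2.04 to 45.9 CPM.

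Macrophage-like clusters spread over nearly the same range. Ptgs2 made up 90.4% (86.6 to 93.4%) of the 2 genes' UMIs in NRS and 87.7% (85.7 to 89.5%) in aCXCR2 in cluster 10, led by Cxcl3, Arg1 and Mmp12. It made up 13.3% (8.55 to 19.5%) and 26.0% (23.0 to 29.2%) in cluster 2, led by the chemokine gene Ccl8 and the complement genes C1qa, C1qb and C1qc. In cluster 9, led by Ccr2, Ly6c2 and MHC class II genes, it was 48.2% (42.8 to 53.7%) in aCXCR2, with only 34 cells in NRS. Across the alternative filters and clusterings tried, the lowest share of any neutrophil-like cluster ran from 6.82 to 18.7% and the highest from 94.9 to 98.7%. For macrophage-like clusters these ranges were 1.28 to 2.70% and 87.4 to 90.4%.

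**Figure D2:**
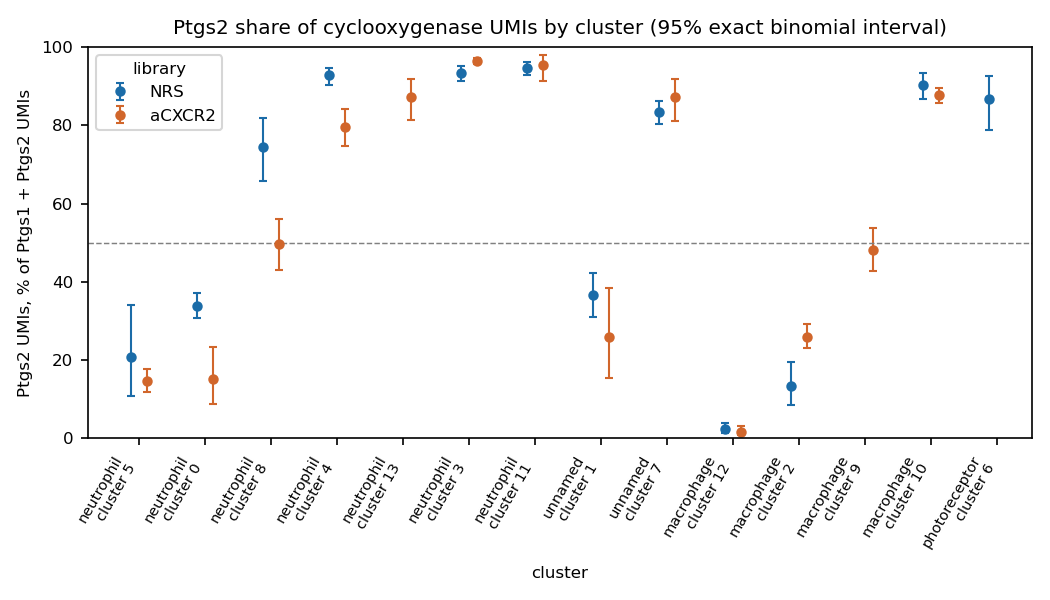
Ptgs2 UMIs as a percent of Ptgs1 plus Ptgs2 UMIs (y axis) by cluster (x axis) and library (colour), with 95% exact binomial intervals, for clusters with at least 50 cells and 50 such UMIs. In both classes some clusters lie at 1.68 to 33.8% in both libraries (12, 5, 2 and 0) and others at 79.7 to 96.5% (4, 10, 3 and 11), and cluster 8 differs most between libraries among the neutrophil-like ones, at 74.4% in NRS and 49.6% in aCXCR2.

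Single cells rarely showed both cyclooxygenase genes at equal depth. With each cell thinned to 1000 UMIs, which left out 180 NRS and 44 aCXCR2 neutrophil-like cells as shallower, 107 NRS cells had a Ptgs1 UMI only, 271 a Ptgs2 UMI only and 8 both, of 2618. Detection independent within each cluster would give 8.62 with both. In aCXCR2 the numbers were 98, 136 and 6 of 2555, against 3.73. These numbers are too small to tell whether the 2 genes were separated within clusters. Thinning to 10000 UMIs left out 34 aCXCR2 cells of macrophage-like cluster 2, and 20 aCXCR2 and 48 NRS cells of cluster 10, as shallower. Of the rest, cluster 2 held 3 cells with both in aCXCR2 where independence would give 7.38. Cluster 10 held 5 in aCXCR2 where it would give 5.27. In NRS cluster 10 held 0 where it would give 1.82, cluster 2 held 0 where it would give 1.02, and cluster 9 held 0 where it would give 0.174. Values above independence were those of aCXCR2 cluster 9, with 3 against 1.91, and of cluster 12, with 2 in each library against 1.10 (NRS) and 1.66 (aCXCR2). Here 40 NRS cells of cluster 2, 11 NRS and 18 aCXCR2 cells of cluster 9, and 122 and 28 of cluster 12 were shallower. These numbers too are small, and they had no common direction.

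Within clusters Ptgs2 CPM was lower in aCXCR2 in all 6 neutrophil-like clusters that had at least 50 cells in each library, although 2 of them were not lower than the median gene. Of 5464 genes tested in those 6 clusters, 28.8% were lower in all 6, and 2 of the 5 members tested so were, Ptgs2 and Lta4h. In the other direction 2.05% were higher in all 6, and 0 of 5 members. The Ptgs2 count is thus no more than many genes show. The largest gap was in cluster 8, led by the interferon-inducible genes Ifitm1, Gbp2 and Cxcl10, where Ptgs2 had 134 CPM in NRS (108 to 165) against 24.4 CPM in aCXCR2 (20.2 to 29.3). Its log2 ratio of aCXCR2 over NRS was -2.46 (-2.87 to -2.05), while the median gene of that cluster lay at -0.66. In clusters 0, 5 and 4 the log2 ratios of Ptgs2 were -0.97, -0.89 and -0.83 beside median genes at -0.21 to -0.20, with an interval for cluster 5 that includes 0. Clusters 3 and 11 had log2 ratios of -0.21 and -0.12, which is above their median genes at -0.50 and -0.25. Macrophage-like cluster 10 went the other way, from 81.1 CPM in NRS (72.1 to 91.0) to 118 CPM in aCXCR2 (log2 0.54, 0.35 to 0.73).

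Ptgs1 had no common direction within clusters. Among neutrophil-like clusters it was higher in aCXCR2 in clusters 4 (16.9 and 31.0 CPM, log2 0.88) and 0 (log2 0.56) and lower in clusters 3 (26.1 and 11.7 CPM, log2 -1.16), 8 (-0.90), 11 (-0.37) and 5 (-0.28). The last 2 had intervals that include 0. In macrophage-like clusters it was higher in clusters 10 (8.64 and 16.5 CPM, log2 0.93) and 12 (log2 0.31) and lower in cluster 2 (35.6 and 24.6 CPM, log2 -0.53). Over the whole macrophage-like class it was 2.06-fold lower in aCXCR2 (log2 -1.05, -1.17 to -0.92). That class value went with the share of cluster 12, 265 of 607 NRS cells and 120 of 1768 aCXCR2 cells, which held 36.1% of all NRS Ptgs1 UMIs. Over the neutrophil-like class the log2 ratio of Ptgs1 was -0.57 and that of Ptgs2 -0.60. With TMM factors, which raise every ratio of the class by 0.67, they were 0.096 and 0.074, so neither direction held under another scaling. Without cluster 0 the log2 ratio of Ptgs1 was 0.30.

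Ptges, the inducible prostaglandin E2 synthase, had most of its macrophage-like UMIs in cluster 10. Over the class its level was 226 CPM in both libraries (218 to 233 in NRS, 222 to 231 in aCXCR2). Cluster 10 alone held 864 CPM in NRS (833 to 895) and 749 CPM in aCXCR2 (731 to 768), and 68.7% of all NRS Ptges UMIs came from its 162 cells. Ptges was among the 10 leading genes of that cluster although it had been left out of the clustering. Cluster 10 was also the macrophage-like cluster with the highest Ptgs2. At 10000 UMIs a cell, 23 of the 23 NRS cells with Ptgs2 also had Ptges (21.6 if independent), and 40 of 47 in aCXCR2 (38.0 if independent). Cluster 2 held 23.1 CPM in NRS (18.7 to 28.3) and 145 CPM in aCXCR2 (140 to 149), a log2 ratio of 2.64. Cluster 12 differed the other way, at 29.95 and 15.7 CPM (log2 -0.93). The equal class values thus hold unlike values in the clusters, and across the alternatives the class log2 ratio ran from -0.35 to 1.82.

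Ptges was lower in neutrophil-like cells, with 30.2 CPM in NRS (27.3 to 33.3) and 46.9 CPM in aCXCR2 (44.1 to 49.8). It was higher in aCXCR2 in all 5 neutrophil-like clusters where it reached 10 CPM. The share of all genes higher in those 5 was not computed. In cluster 11, under that level, Ptges was lower (9.30 and 5.55 CPM, log2 -0.74), with an interval that includes 0 (-3.93 to 1.40). Clusters 3 (18.2 and 60.2 CPM, log2 1.73), 5 (19.2 and 48.1 CPM, 1.33), 4 (59.7 and 141 CPM, 1.25) and 0 (28.2 and 66.1 CPM, 1.23) had intervals above 0. The interval of cluster 8 (0.50) did not. In clusters 11 and 13, which had Hdc among their leading genes, Ptges stood between 5.55 and 9.30 CPM. In aCXCR2 both clusters lay near the photoreceptor-like level of 5.13 CPM, whereas NRS cluster 11 (4.95 to 15.9 CPM) lay above that of NRS (1.43 to 3.54 CPM). Macrophage RNA, in which Ptges is abundant, had no common direction between the libraries. The 12 macrophage markers, none of them at 0, summed to 1315 (NRS) and 884 CPM (aCXCR2) in neutrophil-like cells. In photoreceptor-like cells they summed to 349 and 432 CPM. Single genes abundant in macrophage-like cells were not lower in aCXCR2 neutrophil-like cells. There C1qa stood at 15.29 and 15.71 CPM, Pf4 at 28.04 and 54.53 CPM and Csf1r at 220.4 and 263.6 CPM. In photoreceptor-like cells C1qa stood at 7.61 and 26.2 CPM and Pf4 at 10.25 and 70.6 CPM. The part of macrophage RNA in the Ptges values was not tested.

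Tbxas1, the thromboxane synthase gene, differed less than 2-fold between macrophage-like clusters within a library and was low in neutrophil-like cells. The class had 139 CPM in NRS (133 to 145) and 121 CPM in aCXCR2 (118 to 124). Cluster 12 held 151 and 154 CPM, cluster 2 held 142 and 129 CPM, cluster 10 held 117 and 151 CPM, and cluster 9 held 81.7 CPM in aCXCR2. Clusters 10 and 12, which lay furthest apart in their Ptgs2 share, were thus both among the high ones for Tbxas1. Neutrophil-like cells had 4.53 CPM in NRS (3.45 to 5.85) and 7.15 CPM in aCXCR2 (6.10 to 8.34), of which only the NRS interval lies clear of photoreceptor-like cells (0.381 to 1.74 and 0.925 to 6.64 CPM). At equal depth 0.458% and 0.626% of neutrophil-like cells had a Tbxas1 UMI. These shares lie inside the intervals of photoreceptor-like cells (0.0379 to 1.13% and 0.0122 to 2.65%), of which only 2 and 1 had one. By share alone, Tbxas1 in neutrophil-like cells cannot be told from background. Platelets also make thromboxane, but of 8 platelet markers only Pf4, which these macrophages carried at 3066 and 3928 CPM, exceeded 10 CPM in any class. Gp9 had 0 UMIs in 3 of the 4 leukocyte class values and 1 UMI in the other.

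Hpgds, the haematopoietic prostaglandin D2 synthase, was highest in macrophage-like cluster 2 in NRS and in macrophage-like cluster 12 in aCXCR2, where clusters 1, 4 and 0 came before cluster 2. Across 30 combinations of cluster and library its level had a Pearson correlation of 0.56 with Ptgs1 and -0.36 with Ptgs2, as a description. Macrophage-like cells had 85.0 CPM in NRS (80.5 to 89.7) and 26.8 CPM in aCXCR2 (25.4 to 28.2), 3.17-fold lower (log2 -1.67). Cluster 12 stood at 98.3 CPM (91.3 to 106) and 87.3 CPM (79.2 to 96.0), with intervals that overlap. Cluster 2 stood at 144 CPM (132 to 156) and 37.2 CPM (34.8 to 39.7), a log2 ratio of -1.95 (-2.10 to -1.80). Clusters 9 and 10 lay between 3.90 and 4.71 CPM, no higher than photoreceptor-like cells at 5.62 and 5.13 CPM. Among macrophage-like cells Hpgds was thus a transcript of the C1qa and Spp1 clusters. Thinning to 10000 UMIs left out 28 of 120 aCXCR2 and 122 of 265 NRS cells of cluster 12 as shallower. Among the aCXCR2 cells kept, 36 of 51 cells with Ptgs1 also had Hpgds, where independence would give 26.6. In NRS that number was 47 of 79, where it would give 44.7.

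Neutrophil-like cells held Hpgds at 22.9 CPM (20.4 to 25.6) and 10.3 CPM (9.02 to 11.7), most of it in clusters 4 (43.5 and 58.9 CPM) and 0 (25.5 and 47.0 CPM). In both of these clusters the aCXCR2 value was the higher one (log2 0.43 and 0.88), whereas over the class it was lower (log2 -1.15). Unnamed cluster 1, led by Itpr2, Gadd45b and Gdf15, held 76.0 CPM in NRS (68.4 to 84.3) and 70.7 CPM in aCXCR2 (50.3 to 96.6). Mast cells are a known source of this enzyme. Of 9 mast cell and basophil markers, 7 or 8 had 0 UMIs in each leukocyte class and library, and their sums lay between 0.0640 and 4.76 CPM.

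Alox5 was a neutrophil-like transcript and scarce in macrophage-like cells. Neutrophil-like cells had 59.8 CPM in NRS (55.7 to 64.2) and 63.4 CPM in aCXCR2 (60.2 to 66.8), and macrophage-like cells 5.70 CPM (4.57 to 7.01) and 3.95 CPM (3.44 to 4.52). Scaled by total UMIs, the neutrophil-like class differed between libraries by less than counting error (log2 0.08, -0.04 to 0.21), and over 13 settings the ratio ran from -0.25 to 0.81. In NRS, clusters 11 (112 CPM), 5 (108 CPM), 8 (85.1 CPM) and 0 (67.9 CPM) were highest, and cluster 4 was lowest at 13.1 CPM (9.15 to 18.3). In aCXCR2, cluster 13, led by Retnlg and S100a9, was highest at 101 CPM (89.9 to 113) and cluster 4 again lowest at 14.5 CPM (9.61 to 20.9). Both a Ptgs2-rich cluster (11) and a Ptgs1-rich cluster (5) were thus high in Alox5, and the Ptgs2-rich cluster 4 was not.

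Alox5ap had more UMIs than any other of the 10 genes in both leukocyte classes. Neutrophil-like cells had 664 CPM in NRS (650 to 678) and 992 CPM in aCXCR2 (980 to 1005) (log2 0.58, 0.55 to 0.62). Macrophage-like cells stood at 522 CPM (511 to 533) and 621 CPM (614 to 628) (log2 0.25, 0.22 to 0.29). Unlike Alox5 transcripts, those of Alox5ap were thus plentiful in both classes, and higher in the neutrophil-like class in each library. At equal depth a UMI was found in 44.0% (NRS) and 58.2% (aCXCR2) of neutrophil-like cells, and in 3.91% and 3.85% of photoreceptor-like cells. Cluster 13 was highest, at 1486 CPM in aCXCR2, and cluster 4 lowest among neutrophil-like clusters in NRS at 401 CPM (377 to 426). Within clusters Alox5ap was higher in aCXCR2 in 5 of 6 neutrophil-like clusters (log2 0.20 to 0.62) and not in cluster 11 (-0.12). It was higher in all 3 macrophage-like clusters compared (0.15 to 0.37), as were 25.5% of the 6770 genes tested there and no other of the 5 members tested. In those clusters 9.22% of genes and 0 of 5 members were lower throughout.

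Alox15, the lipoxygenase gene known from resident macrophages and eosinophils, was nearly undetected. It had 1 UMI in NRS neutrophil-like cells and 0 UMIs in aCXCR2 neutrophil-like cells and in macrophage-like cells of either library. A count of 0 allows up to 0.131 CPM in aCXCR2 neutrophil-like cells, and up to 0.192 and 0.0551 CPM in macrophage-like cells. The 5 eosinophil markers summed to at most 2.77 CPM in either leukocyte class.

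**Figure D3:**
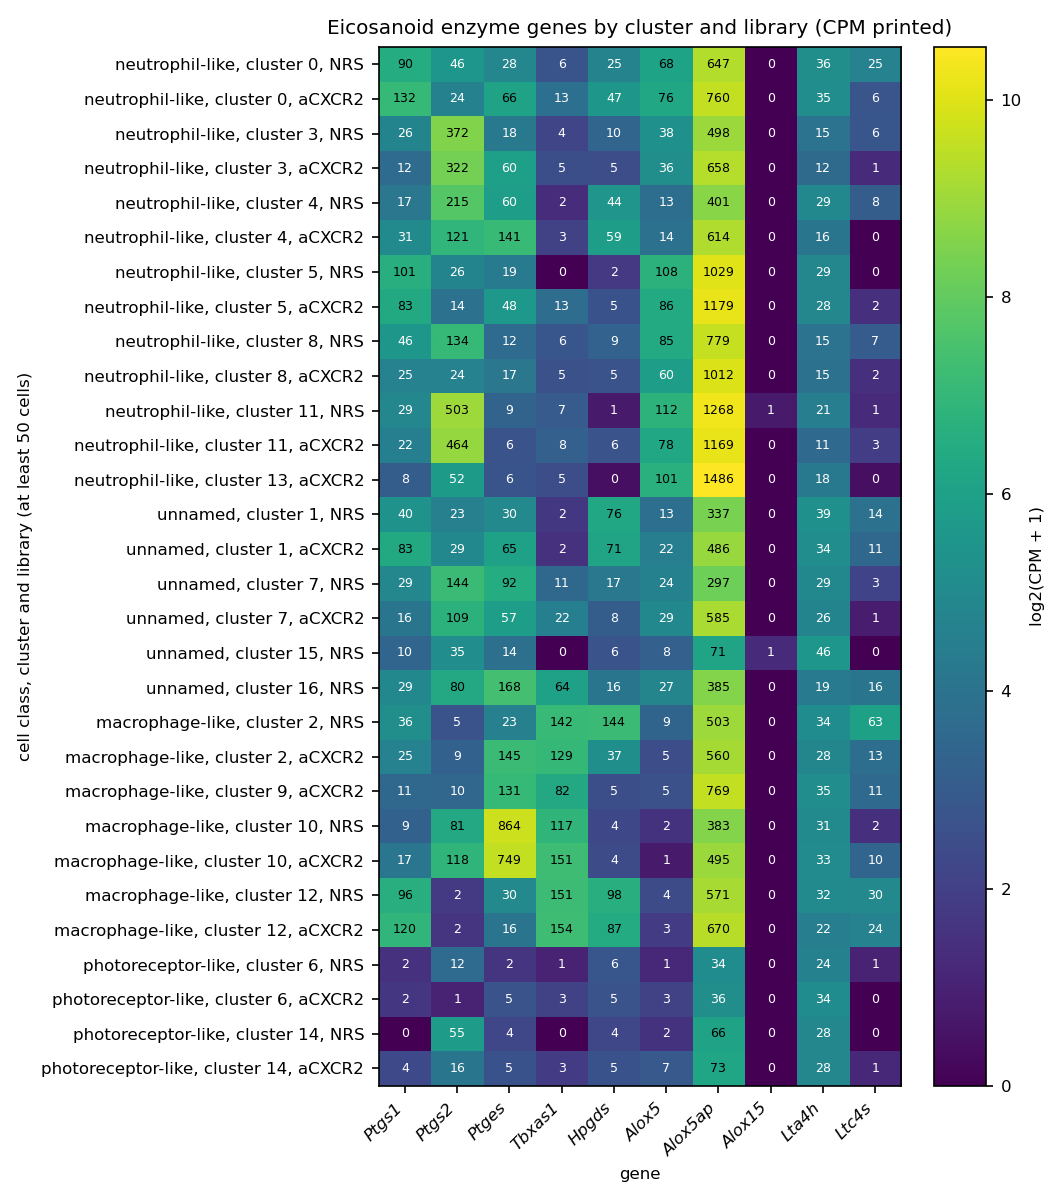
Level of the 10 genes (columns) in each cluster and library with at least 50 cells (rows), coloured by log2(CPM + 1) with the CPM printed in each cell. Alox5ap is bright in all leukocyte rows, Alox5 in neutrophil-like rows and Tbxas1 in macrophage-like rows, while Ptges peaks in cluster 10 at 864 and 749 CPM.

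Lta4h, which makes leukotriene B4, showed little difference between cell types. Neutrophil-like cells had 28.9 CPM in NRS (26.0 to 31.95) and 18.7 CPM in aCXCR2 (17.0 to 20.6), and macrophage-like cells 32.6 CPM (29.8 to 35.5) and 30.2 CPM (28.7 to 31.6). Photoreceptor-like cells stood at 24.4 CPM (21.3 to 27.8) and 30.8 CPM (23.1 to 40.1). Neutrophil-like clusters 3 (15.2 and 11.5 CPM) and 8 (14.9 and 14.7 CPM) were among the lowest in both libraries. No cluster in the plot of levels exceeded 45.7 CPM, the value of unnamed cluster 15. In neutrophil-like cells the log2 ratio was -0.63, but 0.043 with TMM factors. In each of the 6 clusters it was lower in aCXCR2, by as little as 0.02 on the log2 scale in clusters 0 and 8, and only the interval of cluster 4 excluded 0.

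Ltc4s, which makes the first cysteinyl leukotriene, was a macrophage-like transcript, and of the 9 genes compared it differed most between libraries in neutrophil-like cells. Macrophage-like cells had 37.4 CPM in NRS (34.5 to 40.6) and 13.1 CPM in aCXCR2 (12.1 to 14.1), a log2 ratio of -1.52. Cluster 2 stood at 62.7 CPM (55.2 to 70.9) and 13.1 CPM (11.7 to 14.6), and cluster 12 at 30.1 CPM (26.3 to 34.3) and 24.3 CPM (20.2 to 29.1). Cluster 10 went the other way, at 1.67 CPM (0.614 to 3.64) and 9.91 CPM (7.93 to 12.2). The lower class level thus came with lower levels in cluster 2, which made up more of the class in aCXCR2, but not with these alone. Cluster 9 held 103 of the 585 NRS macrophage-like UMIs in 34 cells, too few for a comparison. In aCXCR2 it stood at 11.3 CPM (9.70 to 13.0). Cluster 12 made up 265 of 607 NRS and 120 of 1768 aCXCR2 cells of the class. The part of each cluster in the class value was not tested. A single aCXCR2 macrophage-like cell held up to 97 Ltc4s UMIs, and 9.67% of those cells had any.

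In neutrophil-like cells Ltc4s had 14.5 CPM in NRS (12.5 to 16.7) and 1.44 CPM in aCXCR2 (0.991 to 2.02), 10.1-fold lower (log2 -3.33, -3.91 to -2.79). The aCXCR2 value lies within the photoreceptor-like interval of 0.0144 to 3.17 CPM and cannot be told from background, while the NRS value exceeds that of photoreceptor-like cells (0.882 CPM, 0.381 to 1.74). Cluster 0 held most of the NRS signal, at 24.5 CPM (20.8 to 28.7), against 5.88 CPM (1.60 to 15.05) in its 139 aCXCR2 cells. This direction held under all 13 settings compared, with log2 ratios from -3.46 to -1.66. In aCXCR2 the cells with Alox5 UMIs at 63.4 CPM, the neutrophil-like class, thus had Ltc4s at 1.44 CPM. In NRS that class had Alox5 at 59.8 CPM and Ltc4s at 14.5 CPM. Ltc4s was thus lower in neutrophil-like than in macrophage-like cells of both libraries (37.4 and 13.1 CPM in the latter). Single clusters did not all follow this. In NRS cluster 0, with Alox5 at 67.9 CPM, had more Ltc4s than macrophage-like cluster 10 at 1.67 CPM. In aCXCR2 the intervals of these 2 clusters overlapped, with cluster 10 at 9.91 CPM (7.93 to 12.2).

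**Figure D4:**
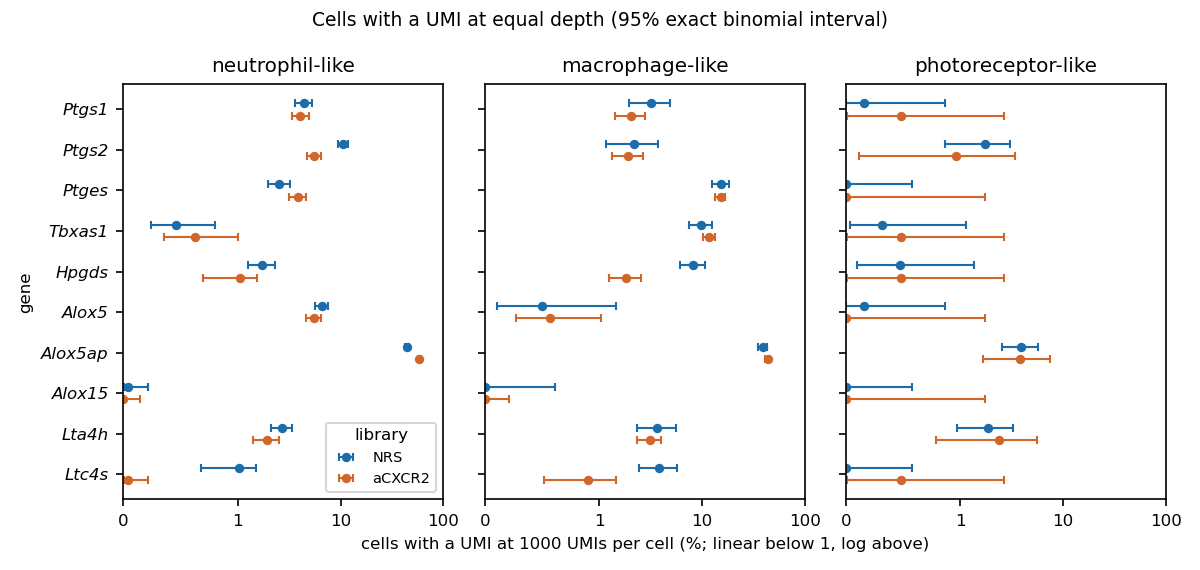
Percent of cells with at least 1 UMI (x axis, linear below 1 and logarithmic above) for each gene (y axis) after thinning every cell to 1000 UMIs, by class and library (colour), with 95% exact binomial intervals. Alox5ap reaches 44.0 and 58.2% of neutrophil-like cells, and the photoreceptor-like panel gives the level in retinal cells, at most 3.91% for any gene.

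The plot of shares at equal depth removes differences in depth between the cells kept. A share still rises with the amount per cell, so the plot cannot separate that amount from the number of expressing cells. Neutrophil-like cells with Ptgs2 made up 10.7% in NRS (9.50 to 11.9%) and 5.56% in aCXCR2 (4.70 to 6.52%), beside 1.72% and 0.962% of photoreceptor-like cells. Without thinning these shares were 21.5% and 16.8%. The 280 NRS and 260 aCXCR2 neutrophil-like cells with most Ptgs2 UMIs carried 83.4% and 93.3% of them, with up to 40 and 166 UMIs in 1 cell. For Ptgs1 the same numbers of cells carried 81.3% and 77.9%. For Ptges, Ltc4s, Tbxas1 and Hpgds they carried 100% in NRS. Where few cells have any UMI such a value is high, so it does not show that Ptgs2 was held more unevenly than other genes. Ptgs1 was seen in 4.39% (3.64 to 5.25%) and 4.07% (3.34 to 4.91%), with at most 9 and 11 UMIs in 1 cell. Before thinning the class medians were 4378.5 and 7647 UMIs in neutrophil-like and 5735 and 5799 UMIs in photoreceptor-like cells.

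Over whole classes, few of the 10 genes differed 2-fold between libraries. Of genes reaching 50 CPM in either library, 0 of 4 members were 2-fold lower or higher in neutrophil-like cells, where 12.6% of 3090 genes were 2-fold lower and 2.75% higher. With TMM factors 1 of the 4, Alox5ap (log2 1.25), was 2-fold higher, where 10.7% of genes were. In macrophage-like cells Ptgs1 and Hpgds, 2 of 5, were 2-fold lower, beside 2.56% of 2852 genes, and 0 of 5 were 2-fold higher, beside 4.59%. With a minimum of 10 CPM, Ltc4s and Hpgds, 2 of 8, were 2-fold lower in neutrophil-like cells, where 20.2% of 7199 genes were, and 0 of 8 were 2-fold higher, beside 2.08%. In macrophage-like cells Ltc4s joined Ptgs1 and Hpgds, 3 of 8, where 2.44% of 7570 genes were 2-fold lower, and 0 of 8 were 2-fold higher, beside 3.05%. The neutrophil-like count is thus near its background and the macrophage-like count above it, with 1 library a group in both. The members were chosen with earlier results of these data known, so neither count is a test.

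**Figure D5:**
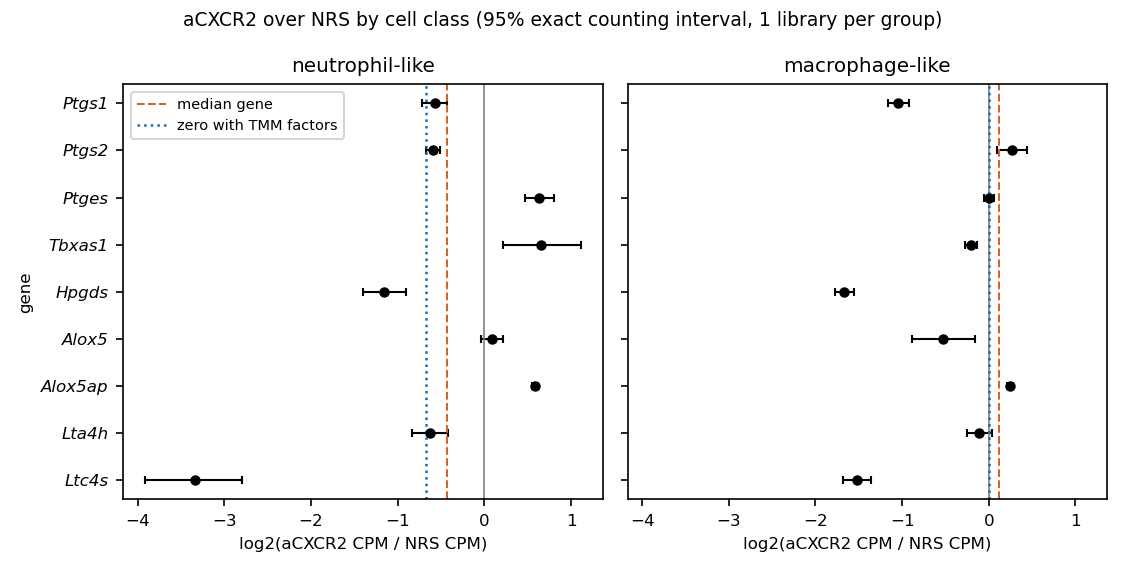
Log2 ratio of aCXCR2 over NRS CPM (x axis) for 9 genes (y axis) in neutrophil-like and macrophage-like cells, with 95% exact counting intervals, the median of genes with at least 50 CPM (dashed) and the position that TMM factors would put at 0 (dotted). In neutrophil-like cells Ptgs1, Ptgs2 and Lta4h lie between those lines, so their sign depends on the scaling, while Ltc4s lies at -3.33. In macrophage-like cells Ptgs1, Ltc4s and Hpgds lie at -1.05, -1.52 and -1.67.

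Other genes of the pathway were taken from a list of 58 measured genes that release the substrate, complete the synthesis, inactivate and export the products or bind them. In neutrophil-like cells 8 of them had at least 50 CPM in 1 library, of which 0 were 2-fold higher and 0 lower, where 2.75% and 12.6% of all genes were, with a list median of log2 0.49 beside -0.43 for all genes. With TMM factors 5 of the 8 were 2-fold higher, where 10.7% of all 3090 genes were. Those with most UMIs included Fpr2, a receptor for lipoxin and formyl peptides (400 and 701 CPM), Pla2g7, which degrades platelet-activating factor (559 and 771 CPM), and Cotl1, a partner protein of 5-lipoxygenase (463 and 660 CPM). Cyp4f18, which inactivates leukotriene B4, stood at 272 and 234 CPM, and its receptor gene Ltb4r1 at 93.5 and 171 CPM. Ltb4r1 and Fpr2 were therefore higher in the aCXCR2 library (log2 0.87 and 0.81), as was Ggt1, which trims leukotriene C4, from 3.69 to 23.6 CPM (log2 2.68). Ptgr2, a prostaglandin reductase gene, stood at 42.5 and 11.1 CPM (log2 -1.93) and Ptger2, a prostaglandin E2 receptor gene, at 40.9 and 18.2 CPM (log2 -1.16).

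In macrophage-like cells 16 genes of the list had at least 50 CPM, of which 3 were 2-fold higher and 2 lower in aCXCR2, where 4.59% of all genes were higher and 2.56% lower. The list median was log2 -0.01 beside 0.12 for all genes. The higher ones included the receptor genes Ltb4r1 (32.0 and 115 CPM, log2 1.85) and Fpr2 (108 and 255 CPM, log2 1.25). Cysltr1, which binds cysteinyl leukotrienes, was also higher (38.7 and 85.6 CPM, log2 1.15). Ltb4r1 was highest in neutrophil-like clusters 11, 13 and 8, Fpr2 in neutrophil-like clusters 8, 5 and 3, and Cysltr1 in macrophage-like clusters 9, 2 and 10. Cluster 9 held 34 NRS and 585 aCXCR2 cells. The 12 neutrophil markers summed to 2360 and 4489 CPM in macrophage-like cells. The part of neutrophil RNA or of the mix of clusters in these 3 values was not tested. The lower ones were Mgst2, another enzyme able to make leukotriene C4 (52.0 and 15.7 CPM, log2 -1.73), and Ptgr1, which inactivates leukotriene B4 and prostaglandins (119 and 52.3 CPM, log2 -1.19). The cytosolic phospholipase gene Pla2g4a, which frees arachidonic acid, stood at 27.5 and 43.8 CPM (log2 0.67).

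The genes most like each member were found by the correlation of log2(CPM + 10) across 30 combinations of cluster and library, among 7206 genes. These combinations share libraries, depth and cell class, and the correlations are descriptions. Ptgs2 was most like Tiparp (Pearson r 0.86), Noct (0.85), Ier3 (0.84), Nlrp3 (0.84) and Kdm6b (0.83), and genes like Ptgs1 included Scarb2 (0.87), Adap1 (0.84), Lyl1 (0.84) and Arl11 (0.83). The correlation between Ptgs1 and Ptgs2 was -0.16. Tbxas1 was most like the macrophage transglutaminase gene F13a1 (0.97) and the phospholipid transfer gene Pltp (0.96), and Ptges like Pgk1, a glycolysis gene (0.87), and Tnfrsf9 (0.85). Alox5 was most like the gene model AC139671.1 (0.96), Arap3 (0.96) and Cd101 (0.95), Alox5ap like Cd37 (0.97), Lta4h like Naxe (0.86), Hpgds like Ncoa4 (0.83) and Ltc4s like Rgs10 (0.83). Between members, Hpgds and Ltc4s were the closest pair (0.75), followed by Alox5 and Alox5ap (0.66) and by Ltc4s and Tbxas1 (0.64), while Ptgs2 and Lta4h were furthest apart (-0.55).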

How the data were processed

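Each library was assigned to its group by its source label. The deposited matrices held raw UMI counts per gene and barcode as whole numbers, with no normalization by the authors, per the file headers. Cell Ranger and Seurat are named, with no version, in the submitters' processing notes, and 3.0.0 is the software version in the matrix headers. Those notes list a human build, GRCh38, whereas the features were mouse genes. The mouse build of the authors was not given in the sources used here. Of 31053 gene IDs, 30934 matched the GENCODE annotation of GRCm38, from which gene positions come, and promoter sequences for 8 of the 10 genes came from the RefSeq table of GRCm38.p6.

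Cells had at least 500 UMIs, 200 genes and at most 10% mitochondrial UMIs. Scrublet (scanpy 1.11.5) called 0 of 5655 NRS and 4 of 4826 aCXCR2 cells as doublets, which means that the caller has not worked and that doublets were kept. An alternative removed the 256 and 186 highest scores. Both libraries were clustered together (2000 variable genes, 30 principal components, 15 neighbours, leidenalg 0.10.2, resolution 1), without correction for library. Clusters were named from marker lists. How scores gave names was decided with the data in view: a marker counted if seen in at least 10% of a cluster's cells, the score was its mean log2 level over the lower quartile of clusters with a prior of 100 CPM, and a name needed a score of at least 1 with no other class at 1. Clusters under 20 cells stayed unnamed.

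UMIs were summed per library and class or cluster and divided by their total (CPM). Intervals are exact Poisson for CPM, exact Clopper-Pearson for shares and exact conditional for ratios, at 95%, and cover counting error only. A count of 0 allows up to 3 counts. Clusters or libraries with under 50 cells were not compared. The 10 members were all named, with pathway genes of at least 10 CPM in 1 library, up to 4 per role by level, and the 5 genes most like each member, given in part. Mgst2, Ggt1, Ptgr1, Ptgr2, Ptger2 and Cysltr1 were named after their values were seen. The members and lists were chosen with earlier results of these data known. The code for ratios was tested on simulated data. Alternatives changed the cell filter, doublets, clustering, naming, scaling (TMM from edgeR 4.0.16 in R 4.3.3, or median of ratios), weighting, CPM minimum and thinning depth. The scripts ran in Python 3.11.15 with pandas 2.3.3, numpy 2.4.6 and scipy 1.17.1.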

Additional observations from a re-analysis of the deposited data

Results flagged for a closer look

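Ptgs2 had log2 ratios of opposite sign in the 2 leukocyte classes, -0.60 in neutrophil-like and 0.27 in macrophage-like cells, each with a counting interval that excludes 0. Tbxas1 did so too, at 0.66 and -0.20. With 1 library per group the difference between classes was not tested in either case, the share of neutrophil-like cells with Tbxas1 could not be told from background, and TMM factors put Ptgs2 in neutrophil-like cells at 0.074.

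Barcodes removed by the cell filter, 1659 in NRS and 725 in aCXCR2, nearly all for mitochondrial UMIs, still carried these transcripts. For 8 genes the aCXCR2 interval lay above the NRS interval. The share of all genes that did so was not computed, and the cell types of these barcodes were not determined. The count is therefore not read as a result about these genes. The NRS and aCXCR2 levels in removed barcodes were 6.14 and 18.3 CPM for Ptgs1, 23.4 and 41.4 CPM for Ptgs2, 9.61 and 59.2 CPM for Ptges and 7.95 and 54.9 CPM for Tbxas1. They were 11.5 and 23.9 CPM for Hpgds, 3.83 and 13.5 CPM for Alox5, 64.2 and 242 CPM for Alox5ap and 1.81 and 5.33 CPM for Ltc4s. Lta4h stood at 20.8 and 20.3 CPM, with overlapping intervals.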

How the results depend on the processing

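No paired analysis was possible because each group had 1 library and the labels carry no replicate numbers, and for the same reason no library could be left out. In neutrophil-like cells the log2 ratio of Ptgs1 (-0.57) was 0.0097 at resolution 0.5, -0.84 at resolution 2, 0.30 without the cluster of lowest score, -0.41 with unnamed cluster 1 added (chosen after seeing the data), 0.096 with TMM and 0.15 with median of ratios factors. That of Ptgs2 (-0.60) was -1.49, -0.82, -1.30, -0.24, 0.074 and 0.13 under those settings in that order, -0.80 with the strict filter, -0.90 with libraries clustered alone and -0.68 as a mean over cells. Lta4h was 0.043 and 0.10 with the 2 sets of factors. The Ptgs2 share of neutrophil-like NRS cells (75.0%) was 77.8% with the strict filter, 90.3% at resolution 0.5, 77.9% with libraries clustered alone, 90.8% without the lowest cluster and 71.5% with cluster 1, and that of aCXCR2 cells (74.7%) was 76.7% at resolution 0.5 and 76.6% without the lowest cluster.

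In macrophage-like cells Ptgs1 (-1.05) was -1.26 without the lowest cluster and -0.91 as a mean over cells. Ptgs2 (0.27) was -0.18 with the strict filter, -0.50 with libraries clustered alone and 1.08 without the lowest cluster. The Ptgs2 share (27.4 and 48.4%) was 37.6 and 51.7% under the strict filter, and 5.26 and 22.0% when the lowest cluster was left out, and the aCXCR2 share was 46.3% without the highest doublet scores and 34.7% with libraries clustered alone. In neutrophil-like cells 1 of 4 members and 5 of 8 pathway genes were 2-fold higher with either set of factors, where 10.7% (TMM) and 12.5% (median of ratios) of 3090 genes were. At a minimum of 10 CPM, 2 members were lower, and of the pathway list 1 gene was higher and 2 lower, where 20.2% of 7199 genes were lower and 2.08% higher. Apart from scaling and fewer or other cells, the cause was not tested. Of 112 alternative values of these main results, 72 stayed within their limits and 8 turned sign. Alox5ap, Ptges and Tbxas1 stayed higher and Hpgds and Ltc4s lower in neutrophil-like cells under all 13 settings, and Ptgs1, Hpgds, Ltc4s, Alox5 and Tbxas1 lower in macrophage-like cells under all 12. Few UMIs limit the neutrophil-like values of Alox15 (1 and 0), Tbxas1 (59 and 164) and Ltc4s (189 and 33).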
